A study of Mus musculus with 3 samples.

Results

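Retinoid binding and metabolism genes were examined in neural retinas of Rp1-knockout mice. The set held 7 genes, chosen by name: Rlbp1, Rrh, Ttr, Crabp1, Crabp2, Aldh1a1 and Aldh1a2. Every probe set of the Affymetrix U74Av2 array to which the platform annotation gave 1 of these symbols and no other was taken. The rule found 8 probe sets for all 7 genes, out of 12422 non-control probe sets and 8251 genes with a symbol. Aldh1a1 had 2 probe sets and each of the other genes had 1.

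The series consisted of 3 arrays in 1 group. All mice were Rp1-/-, without the axonemal microtubule protein of photoreceptors, on a background mixed from 129/SvEv and C57BL/6. Each array measured total RNA from the neural retinas of 3 to 4 mice, pooled at postnatal day 10 and collected between 1 and 2 pm, per the labels. No array of another genotype was analysed here, so the comparisons are between mutant pools, each with 1 array. The labels do not say whether pools shared a litter or were extracted together, so the spread between arrays may be partly technical. The pools are numbered 1 to 3 in accession order, as names only. The title of pool 1's array carries no rp1 tag, unlike the other titles, but its description states the knockout, which was used.

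Vitamin A derivatives serve the retina in a pair of ways. As 11-cis-retinal they form the light-sensitive group of the visual pigments, which the visual cycle of the pigment epithelium and Müller glia regenerates after bleaching. As retinoic acid, made from retinaldehyde by enzymes of the Aldh1a family, they bind nuclear receptors that regulate transcription during eye development. Retinoids dissolve poorly in water, so carrier proteins hold them at most steps of these routes.

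Signals are the deposited intensities in linear scaled units, with means ± SD (n = 3 pools). A background floor was taken on each array as the 90th percentile of 19 control probe sets for bacterial and yeast sequences that mouse RNA does not contain. This gave 100.5, 124.8 and 120.4 signal units in pools 1, 2 and 3. Over all non-control probe sets, 57.9% lay above the floor in all pools and 23.3% under it in all pools. Of the 8 retinoid probe sets, 5 were above the floor in all pools, 1 for each of Rlbp1, Rrh, Ttr, Crabp1 and Aldh1a1. The probe sets of Crabp2 and Aldh1a2 were under it in all pools, and the dimmer Aldh1a1 probe set was above it in pools 1 and 3. Crabp1 and Aldh1a1 thus each had a probe set above the floor in all pools, and their paralogues Crabp2 and Aldh1a2 did not. The counts of 5 and 2 of 8 are near the shares over all probe sets and are not read as a trait of these genes. A probe set under the floor sets only an upper bound in signal and does not show that the transcript was absent. Different probe sets bind their targets with different strength, so signals are compared between pools and not between genes.

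**Figure D1:**
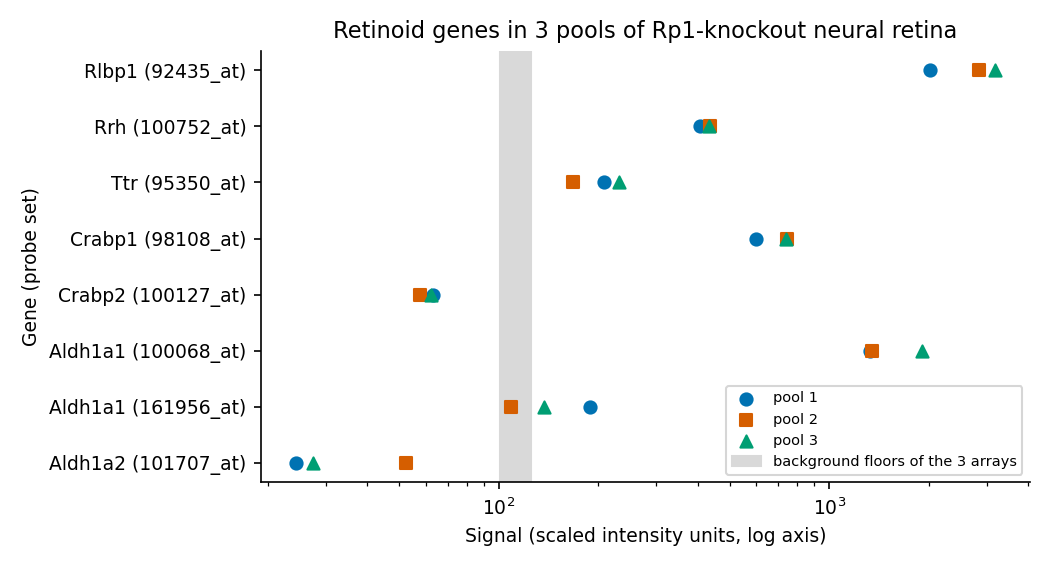
Signal of each retinoid probe set (log axis, scaled intensity units) in pools 1, 2 and 3, 1 point per array, with the range of the background floors (100.5 to 124.8) in grey. Crabp2 and Aldh1a2 lie below the grey band in all pools, and Rlbp1, Rrh, Ttr, Crabp1 and the brighter Aldh1a1 probe set lie above it in all pools.

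Rlbp1 encodes the cellular retinaldehyde-binding protein of Müller glia and pigment epithelium, which carries 11-cis-retinoids in the visual cycle. Its signal was 2014.4 in pool 1, 2832.0 in pool 2 and 3172.5 in pool 3, a mean of 2673 ± 595. Pool 1 was the low one, while pools 2 and 3 were closer to each other. On the log2 scale pool 1 differed from pool 3 by -0.65 and from pool 2 by -0.49, whereas pool 2 differed from pool 3 by -0.16. The highest pool was 1.57-fold above the lowest. The SD of log2 signal was 0.34, against a fitted value of 0.24 for probe sets of like signal, the widest gap above the trend among the retinoid probe sets. The excess did not pass the test of variability (limma, adjusted p = 0.99).

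The other Müller glia markers were not lowest in pool 1 as a group. Of 11 further marker genes, 7 had a probe set and 5 of these were above the floor in all pools. Their summed signal over measured genes was 19147.3 in pool 1, 16062.6 in pool 2 and 17905.0 in pool 3, so pool 1 held the highest sum, and 2 of the 6 measured genes were lowest in pool 1. Car2 (carbonic anhydrase) was lowest in pool 1, at 7104.6, 7816.2 and 7687.8. Apoe, a lipid carrier, was highest there, at 6567.3, 4017.7 and 5037.6. A sum of signals weighs bright probe sets most, and the pool order of the Müller glia sum rests largely on Apoe. Rod photoreceptor markers were lowest in pool 1 for 7 of 9 genes, against 34.8% of all measured probe sets. The Müller glia count of 2 of 6 is near that share. The rod sums were 76808.4, 99250.0 and 88165.2. The part of these differences in the Rlbp1 signal was not tested. In pooled tissue, fewer cells of a type and less RNA per cell cannot be told apart.

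Rrh encodes peropsin, an opsin-like protein of the pigment epithelium that binds all-trans-retinal. It was the steadiest of the retinoid genes, at 406.9, 435.4 and 432.5 in pools 1, 2 and 3, a mean of 424.9 ± 15.7. All pools lay within 1.07-fold. Its SD of log2 signal was 0.05, against 0.32 at like signal, with no excess by the test (limma, adjusted p = 1.0).

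Ttr encodes transthyretin, the plasma carrier of thyroid hormone and of retinol-binding protein. In the eye it is made by the pigment epithelium, and it is also listed here as a marker of ciliary body and choroid plexus. The Ttr signals were 208.4, 168.0 and 231.3, a mean of 202.6 ± 32.1. All pools were above the floor, and the highest pool was 1.38-fold above the lowest. With the floor moved to the highest control probe set of each array (209.1, 172.8 and 210.6), Ttr was above it in pool 3 alone. The SD of log2 signal was 0.23, below the fitted 0.44 (limma, adjusted p = 1.0). Rbp4, the retinol-binding protein that circulates bound to transthyretin, was under the floor in all pools, at 17.2, 14.4 and 18.4. Stra6, its membrane receptor, exceeded the floor only in pool 1, at 168.3, 86.6 and 47.8. Both were named here after their values were seen.

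Pigment epithelium is normally left behind when the neural retina is dissected, and its markers were only partly present. Beside Rrh and Ttr, 8 of 13 markers had a probe set and 3 were above the floor in all pools. The summed signal of those 3 was 1091.9, 970.5 and 1901.7 in pools 1, 2 and 3. Of these, Pmel, a melanosome fibril protein, had 319.7, 327.7 and 908.0. Rdh5, the 11-cis-retinol dehydrogenase of the pigment epithelium, was under the floor in all pools, at 53.4, 69.3 and 77.4. Rgr, its retinal G-protein-coupled receptor, exceeded the floor only in pool 1, at 150.4, 57.5 and 89.4. Rrh did not follow Pmel across pools, whereas Ttr was highest in the same pool. Among markers of ciliary body and choroid plexus other than Ttr, 3 of 4 genes with a probe set were above the floor in all pools. Their sums were 1250.3, 1117.2 and 1035.8, with pool 3 lowest. Each of the 3 was lowest in a different pool, so the sum does not give a shared order. Igfbp2, which sets the low sum of pool 3, had 642.2, 649.2 and 511.1. The brighter Folr1 probe set had 388.6, 235.3 and 288.5, and Slc4a5 had 219.5, 232.7 and 236.2. What share of the Ttr signal came from tissue outside the neural retina was not tested.

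Crabp1 and Crabp2 encode the cellular retinoic acid-binding proteins, small cytoplasmic carriers of retinoic acid. In the retina Crabp1 is known from amacrine and other inner retinal neurons. The Crabp1 signal was 602.2 in pool 1, 746.5 in pool 2 and 741.7 in pool 3, a mean of 696.8 ± 82.0. Pool 1 was lower and the other pools were nearly equal. Pool 1 differed from pool 2 by -0.31 and from pool 3 by -0.30 on the log2 scale. The SD of log2 signal was 0.18, below the fitted 0.28, and was not in excess (limma, adjusted p = 0.99). Crabp2, which delivers retinoic acid to its nuclear receptor, had 63.0, 57.6 and 62.2, a narrow range wholly under the floor. Against the median control probe set of each array (41.2, 60.9 and 45.7), Crabp2 was above in pools 1 and 3 and below in pool 2.

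The other amacrine markers were divided over the pools. All 8 had a probe set and 7 were above the floor in all pools, while Gad2, a GABA-synthesising enzyme, was under it in all pools. The summed signal of the 7 was 12650.7, 12466.7 and 13821.1 in pools 1, 2 and 3. Of the 7, 3 were lowest in pool 1, against 34.8% of all measured probe sets. Calb2 (calretinin) had 3225.7, 4193.0 and 3640.4 and was lowest in pool 1, while Slc6a9, a glycine transporter, had 2619.9, 1824.5 and 2492.2 and was highest there.

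Aldh1a1 and Aldh1a2 encode retinaldehyde dehydrogenases, which oxidise retinaldehyde to retinoic acid. In the embryonic mouse eye Aldh1a1 marks the dorsal retina, and Aldh1a2 is found mainly in mesenchyme around the eye. The brighter Aldh1a1 probe set had 1327.0, 1350.6 and 1909.7 in pools 1, 2 and 3, a mean of 1529 ± 330. Pools 1 and 2 nearly coincided and pool 3 stood 1.44-fold above pool 1. On the log2 scale pool 3 was above pool 1 by 0.53, given as -0.53 for pool 1 minus pool 3, and pool 1 minus pool 2 was -0.03. The SD of log2 signal was 0.30, against a fitted 0.25 (limma, adjusted p = 0.99).

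The dimmer Aldh1a1 probe set ordered the pools differently. It had 189.1 in pool 1, 108.5 in pool 2, which is under the floor, and 137.4 in pool 3. Pool 1 was therefore highest by this probe set and lowest by the brighter one. Its SD of log2 signal after the floor was 0.31, against a fitted 0.40 (limma, adjusted p = 0.99). With the floor at the highest control probe set of each array (209.1, 172.8 and 210.6), the dimmer probe set was under it in all pools. The higher Aldh1a1 signal of pool 3 thus rests on 1 of 2 probe sets, and the other lay near background.

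Aldh1a2 had 24.3, 52.2 and 27.3, under the floor in each pool, and was also under the median control probe set of each array. The other mesenchymal markers of choroid, sclera and meninges were partly present, with 5 of 8 above the floor in all pools by their brightest probe set. Dimmer probe sets of some of these differed. That of Col1a1 was under the floor in all pools, at 8.3, 102.8 and 57.4. That of Col1a2 exceeded it only in pool 2, at 40.0, 232.0 and 35.0. The summed signal of the 7 measured mesenchymal markers was 3656.5, 3627.1 and 4195.9. Aldh1a3, the third retinaldehyde dehydrogenase, known from the ventral retina, was named after its values were seen. It exceeded the floor only in pool 1, at 134.3, 113.2 and 103.1. Aldh1a7, a close relative of Aldh1a1, was also named after its values were seen. It was likewise above the floor only in pool 1, at 121.6, 104.5 and 105.6.

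The bases before the annotated starts of these genes were taken from RefSeq (GRCm38.p6) to describe the sequence there. Windows of 250 bases before a start were found for 5 of the 7 genes, with 2 starts for Aldh1a1. They were searched on both strands for ATGCAAAT (the octamer of POU factors), CCAAT (the CCAAT box), GGGCGG (the GC box), AGGTCA (a nuclear receptor half-site), GGATTA (the core of CRX and OTX sites) and TATAAA (the TATA box). The octamer was added after the sequences had been read. The Aldh1a1 and Aldh1a2 windows are printed because both hold an octamer and a CCAAT box, and the Crabp1 window because it repeats the GC box. All are on the plus strand, at chr19:20601718-20601967, chr9:71215539-71215788 and chr9:54764498-54764747 in that order, and capitals mark the matches.
Aldh1a1: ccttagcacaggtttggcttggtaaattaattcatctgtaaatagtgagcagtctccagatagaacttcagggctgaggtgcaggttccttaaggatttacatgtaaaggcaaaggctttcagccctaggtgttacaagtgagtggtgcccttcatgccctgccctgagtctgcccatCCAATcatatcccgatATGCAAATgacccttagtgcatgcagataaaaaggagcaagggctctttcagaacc
Aldh1a2: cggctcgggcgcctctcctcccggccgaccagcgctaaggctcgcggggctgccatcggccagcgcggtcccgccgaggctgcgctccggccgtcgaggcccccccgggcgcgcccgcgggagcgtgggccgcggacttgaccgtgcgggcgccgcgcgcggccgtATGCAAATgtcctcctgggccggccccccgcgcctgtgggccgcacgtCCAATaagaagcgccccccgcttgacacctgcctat
Crabp1: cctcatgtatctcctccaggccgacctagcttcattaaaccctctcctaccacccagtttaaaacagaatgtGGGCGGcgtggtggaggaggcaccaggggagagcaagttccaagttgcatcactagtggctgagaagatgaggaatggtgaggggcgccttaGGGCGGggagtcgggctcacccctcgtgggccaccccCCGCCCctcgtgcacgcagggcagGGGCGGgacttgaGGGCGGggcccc

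The octamer lay 49 to 56 bases before the start of Aldh1a1 and 77 to 84 bases before that of Aldh1a2. It was found in 1.6% of 32851 such windows across the genome, and together with a CCAAT box in 0.767%. The order of the motifs differed. The CCAAT box was at 68 to 72 bases in Aldh1a1, upstream of the octamer, and at 32 to 36 bases in Aldh1a2, downstream of it. The other annotated start of Aldh1a1 (chr19:20492333-20492582) held none of the 6 motifs. The windows around these motifs differed in composition. Aldh1a2 had 77.6% G and C with 40 CpG dinucleotides, a content higher than that of 97.6% of all windows. The printed Aldh1a1 window had 46.4% and 1 CpG, against medians of 52.4% and 6 over all windows. Crabp1 had 63.6% and 12 CpG, with 5 GC boxes between 7 and 178 bases before the start, a motif present in 32.7% of windows. The windows of Rlbp1 and Rrh held 57.2% and 38% G and C. TATAAA matched at 73 to 78 bases in Rlbp1, on the minus strand of the window, and at 226 to 231 bases in Rrh, and matched 12.4% of all windows. Rrh also held a CCAAT box at 113 to 117 bases, a motif found in 33.8% of windows. None of the 6 windows held AGGTCA or GGATTA, which occurred in 14% and 6.25% of all windows. These matches describe the letters and are not evidence of binding.

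Across the set, 6 probe sets of 5 genes had a mean signal above the mean floor of 115.2 and entered the test of spread between pools. None of the 6 passed the test (limma, adjusted p of 0.99 to 1.0), and none had an unadjusted p under 0.05. Over all 8327 probe sets tested, 18 (0.216%) passed and 445 had an unadjusted p under 0.05, so a count of 0 among 6 is near the background. The median SD of log2 signal was 0.27 for the 6 probe sets and 0.27 for all 8327. An SD above the fitted trend was seen for 2 of the 6, Rlbp1 and the brighter Aldh1a1 probe set. No retinoid probe set differed by more than 2-fold between pools after the floor, against 13.2% of all probe sets tested.

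**Figure D2:**
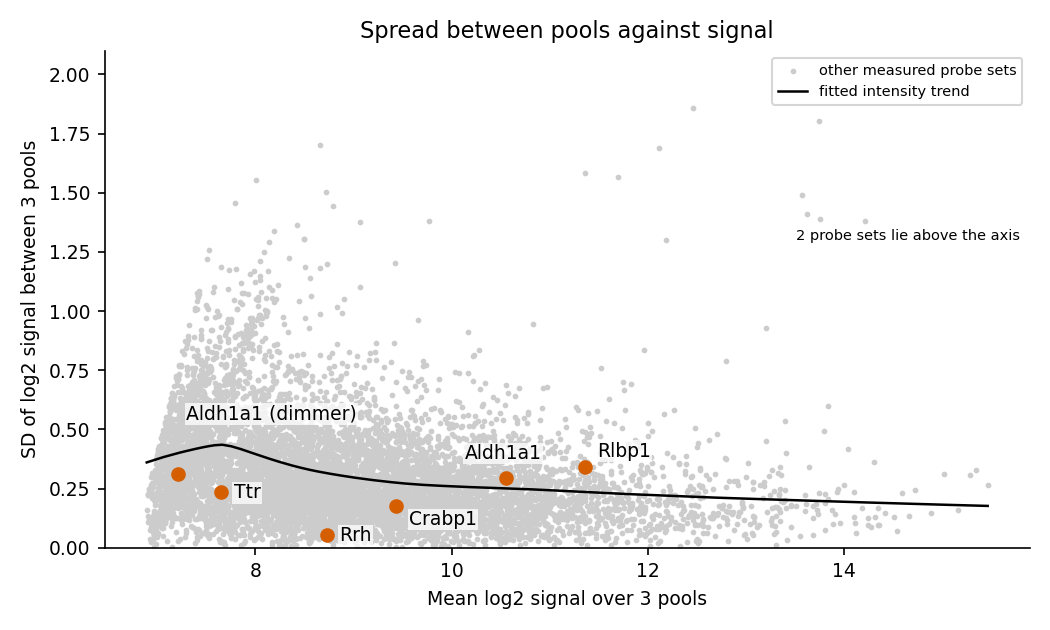
SD of log2 signal between the 3 pools against mean log2 signal, for the 6 measured retinoid probe sets (orange), the other measured probe sets (grey) and the fitted intensity trend (line). Rlbp1 (0.34) and the brighter Aldh1a1 probe set (0.30) lie above the trend, and Rrh (0.05) lies far below it.

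Pool 1 gave the lowest signal for 4 of the 6 probe sets (Rlbp1, Rrh, Crabp1 and the brighter Aldh1a1 probe set), against 34.8% of all measured probe sets. The Rrh and Aldh1a1 gaps to the next pool were small, at -0.09 and -0.03 on the log2 scale. The same 4 were lowest in pool 1 after quantile normalization. Subtracting pool 2 from pool 1 gave a median log2 difference of -0.06 over the 6, against -0.01 over all measured probe sets. Subtracting pool 3 gave -0.23 from pool 1 and -0.15 from pool 2, against -0.01 and 0.01. These medians are a description of 6 probe sets chosen by name.

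Rlbp1 had the largest SD among the measured retinoid probe sets, so its pattern over pools was set against those of other named genes. Likeness was measured as the Euclidean distance between log2 signals centred on each probe set's own mean over the 3 pools. The nearest were Iglc1, an immunoglobulin light chain gene, Vamp3, a vesicle fusion protein, and Ctsc, a lysosomal protease, at distances of 0.0099, 0.012 and 0.018. Vamp3 had 264.7, 370.8 and 420.2 in pools 1, 2 and 3. Of 7476 named probe sets 98 lay within a distance of 0.1.

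The wider retinoid pathway was described with a list of 59 further genes, of which 34 had a named probe set. A gene with several was represented by the one of highest mean signal. Of the 34, 13 were above the floor in all pools and 9 in none, against 57.9% and 23.3% of all non-control probe sets. Here and wherever listed genes are set against such shares, each gene stands by its brightest probe set. The shares are of single probe sets, several per gene included, so the comparison is not like for like. None of the 18 measured genes passed the test (limma, adjusted p of 0.83 to 1.0). Their median SD of log2 signal was 0.21. A difference over 2-fold after the floor was seen for 5 of the 18, Rdh7, Adh1, Adh7, Hoxb1 and Opn1mw, against 13.2% of all measured probe sets. Rdh7, Adh1 and Hoxb1 were under the floor in at least 1 pool, so their differences rest on values raised to it. These 3 were named after their values were seen.

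Enzymes of retinoid metabolism included Abca4, the photoreceptor transporter that clears retinaldehyde from discs, at 2791.6, 3576.2 and 2820.8. Rdh11, a retinol dehydrogenase, had 1540.8, 1733.3 and 1413.5 by 1 probe set, of the f class that can bind related transcripts. A second Rdh11 probe set, of the i class, had 505.3, 645.5 and 842.0 and so placed pool 3 highest rather than lowest. Dhrs3, which reduces retinaldehyde to retinol and is itself raised by retinoic acid, was steady at 633.0 ± 16.3. Adh5 had 2158.9 ± 48.3, Dgat1 509.3 ± 44.4 and Rdh13 365.1 ± 56.2. Their second probe sets differed. That of Dgat1, of the f class, had 75.1, 84.6 and 303.3 and was highest in pool 3, where the brighter one was lowest. That of Adh5 had 1530.0, 1838.4 and 1959.5, and that of Rdh13, also of the f class, 236.6, 130.8 and 239.5. Adh7, a retinol-oxidising alcohol dehydrogenase, had signals of 168.4, 335.1 and 492.7. The range of 2.93-fold was not called (limma, adjusted p = 0.83). This is also the pool order of Rlbp1, of the second Rdh11 and Adh5 probe sets, and of Kdr, an endothelial marker. The brighter Rdh11 and Adh5 probe sets did not share it. How many probe sets have this order was not counted, and it is not read as a link between genes. Cyp26a1, which degrades retinoic acid, exceeded the floor only in pool 3 and by a small margin, at 76.7, 97.4 and 121.8. Of the carriers, Fabp5, a fatty acid carrier that also binds retinoic acid, had 993.9, 896.0 and 1176.5.

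Among nuclear receptors, Rxrb had 2030.8, 1826.6 and 1226.7 and Rxra 721.7, 830.2 and 566.9. Rara had 222.7 and 226.0 in pools 1 and 2 and was under the floor in pool 3, at 96.4. All 3 receptors and the coactivator Ncoa1 (452.0, 412.0 and 376.0) were lowest in pool 3, against 31.8% of measured probe sets, and none passed the test (limma, adjusted p of 0.99 to 1.0). A second Rxra probe set was nearly level, at 474.7, 489.2 and 476.0, and was lowest in pool 1. No pool had Rarg above the floor, and pool 3 alone had Rxrg above it (174.6). The cone opsin Opn1sw, a retinal-binding pigment, had 1863.9 ± 181.7. Opn1mw had 274.3, 601.1 and 240.7, with pool 2 high (limma, adjusted p = 0.83).

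**Figure D3:**
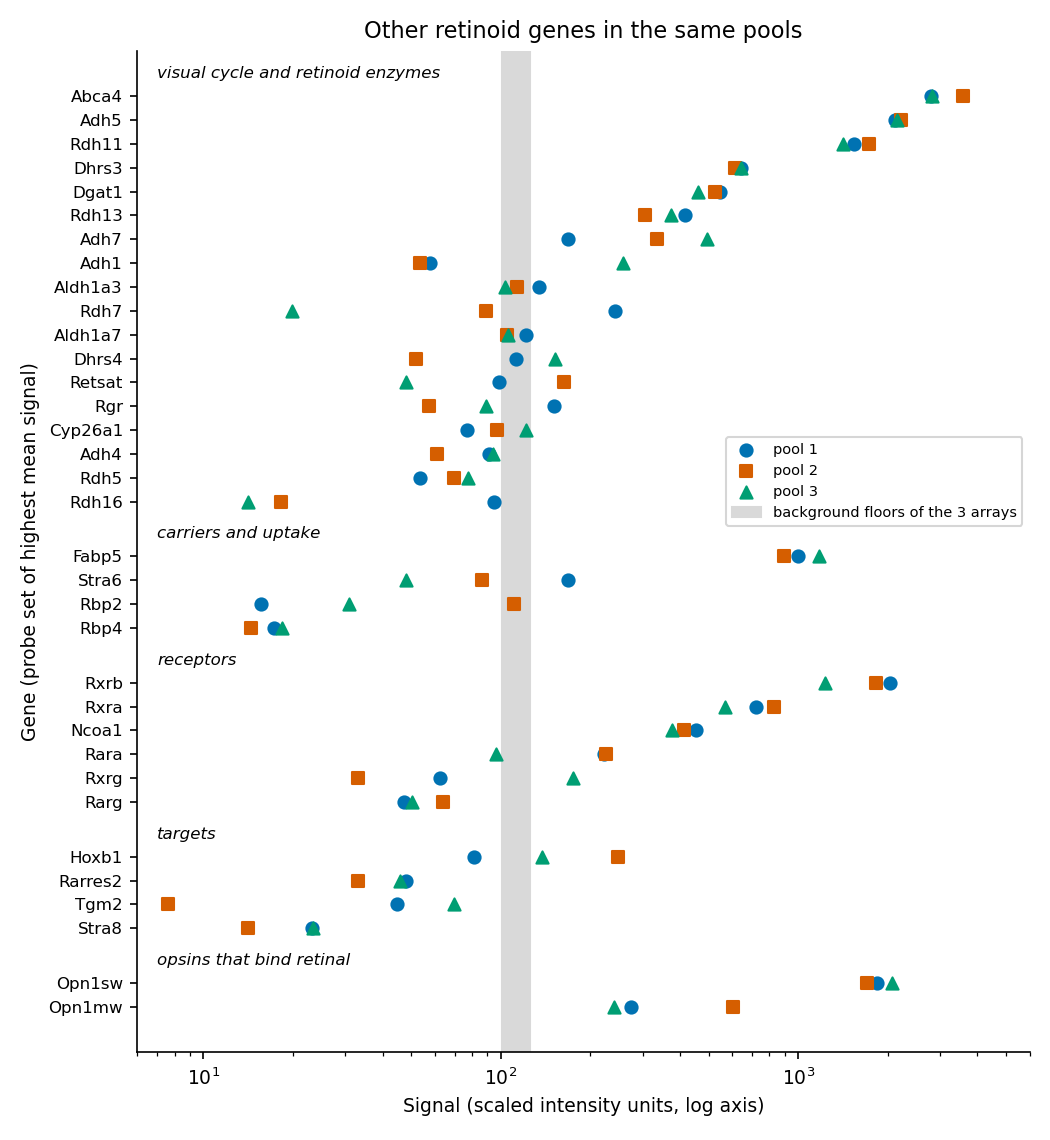
Signal (log axis, scaled intensity units) in pools 1, 2 and 3 of the 34 further retinoid genes with a named probe set, grouped by role, with the range of the background floors in grey. The 13 genes above the floor in all pools include Abca4, Adh5, Rxrb and Opn1sw. Dhrs3, also listed as a retinoic acid target, is drawn among the enzymes and lies above the band. The other targets lie mostly in or below the grey band.

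The arrays were alike in overall signal, with trimmed means of 500.26, 500.25 and 500.26 and medians from 233.3 to 233.8. Their log2 signals correlated across measured probe sets with Pearson's r of 0.933 to 0.941, and probe sets are not independent replicates. For the Actb controls the 3'/5' signal ratio, which tracks RNA integrity, was 1.1, 1.4 and 1.63 in pools 1, 2 and 3, and for Gapdh it was 0.82, 0.9 and 0.75, so the controls ordered the pools differently. Of the rod photoreceptor markers 9 of 9 with a probe set were above the floor in all pools. Lens markers were above it for 8 of 8, with sums of 65212.0, 16552.4 and 147614.8, and 6 of the 8 passed the test of variability (limma). The sums over measured genes for endothelium were 1500.1, 1658.1 and 2019.4 (4 of 6 genes above the floor in all pools), for astrocytes 1495.9, 1336.1 and 1686.7 (3 of 4) and for blood 20541.0, 12671.7 and 10545.7 (3 of 3). Pool 3 also had the highest signal for Rlbp1, Ttr and the brighter Aldh1a1 probe set, beside the highest sums of the lens, endothelial, pigment epithelium, astrocyte, mesenchymal and amacrine lists. The astrocyte and mesenchymal lists share Pdgfra, at 986.1, 788.0 and 1173.4, which makes up most of the astrocyte sum. Of the other measured astrocyte genes, Gfap was highest in pool 2 (287.2) and Pax2 in pool 3 (275.6). The Müller glia, ciliary body and blood sums were highest in pool 1 and the rod sum in pool 2, with the Müller glia order resting largely on Apoe. The part of these tissues in the retinoid signals was not tested.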

How the data were processed

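Pooled neural retina RNA was measured on 3 arrays of 1 group. The table deposited by the authors lists a linear intensity for each probe set on each array. How it was computed is not given in the sources used here. Because the trimmed means (2% at each end) agreed to within rounding, no further scaling was applied. Of 12488 probe sets, 66 controls were left out, and 1 blank row was dropped. Symbols came from the platform annotation and were updated for 10817 of 10833 probe sets with 1 symbol through a mouse gene table (GRCm38.p6). The table has no coordinates.

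Log2 values were taken after raising lower signals to the floor. The 8327 probe sets whose mean signal exceeded the mean floor (called measured) were tested with limma 3.58.1 in R 4.3.3. The model held an intercept alone. Residual variances were set against an F distribution fitted robustly with an intensity trend, and p-values were adjusted by Benjamini-Hochberg over all measured probe sets, with a threshold of 0.05. Python 3.11.15, pandas 2.3.3, numpy 2.4.6, scipy 1.17.1 and matplotlib 3.10.9 did the rest. Precision is limited by the number of arrays.

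The retinoid genes, the wider list and the marker lists were chosen with earlier results of these data known. All retinoid probe sets are named. Of the wider list, genes above the floor in all pools and defining genes of the visual cycle and retinoic acid receptors and targets are named. Others of that list are marked where they were named after their values were seen. Of the marker lists only some genes are named. Scaling, floor, filter, fit and the set of pools were varied.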

Additional observations from a re-analysis of the deposited data

How the results depend on the processing

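Of 62 values of the variability test for the 6 measured retinoid probe sets under 11 alternatives, 0 passed the threshold, and the lowest adjusted p was 0.68 (limma). That value was for Rlbp1 without pool 2, where the unadjusted p was 0.03. The number of probe sets that passed over the whole table was 18 and depended on the fit. It was 52 with no filter on dim probe sets and 6 with an ordinary fit. It was 0 with no intensity trend, where 377 had an unadjusted p under 0.05 (limma). Leaving out 1 pool gave 27 to 40. Of the original 18, 12 were kept without pool 1, 9 without pool 2 and 17 without pool 3. The retinoid probe sets above the floor in all pools numbered 5, and 4 or 6 with the floor at the highest or the median control. The largest log2 difference between pools can only stay or fall when a pool is left out. Here it is given for the pool whose removal lowered it most. Without pool 1 that of Rlbp1 was 0.164 instead of 0.655 and that of Crabp1 0.009 instead of 0.31. Without pool 2 that of Ttr was 0.15 instead of 0.461. Without pool 3 that of the brighter Aldh1a1 probe set was 0.025 instead of 0.525. No paired analysis was possible because there is 1 group. The number of arrays, 3, limits what spread can be detected.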
